A study of Homo sapiens with 24 samples.

Results

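The cyclins and kinases that drive G1 were followed through 24 RNA-seq libraries of A549 cells, a human lung adenocarcinoma line. The set comprised the D cyclins CCND1, CCND2 and CCND3, the E cyclins CCNE1 and CCNE2, and their catalytic partners CDK2, CDK4 and CDK6. It was chosen by gene symbol as G1 genes outside the S-phase and G2/M gene lists, and it makes up 8 of the 58721 gene rows of each library. CCNE2 did not meet that description in full, since the S-phase list distributed with Seurat includes it. The other 7 genes were in neither list.

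The knockdowns addressed which genes depend on MYBL2 and FOXM1, both transcription factors of the cell cycle. Cells of the siMYBL2 group (n = 4) and the siFOXM1 group (n = 4) had received 25 nM siRNA against the named gene and were compared with the same siControl cells (n = 4), given scrambled siRNA. Cells of the siBoth group (n = 3) had received both siRNAs and had scrambled controls of their own, siControl_siBoth (n = 3). Cells of the FDI-6 group (n = 3) had been exposed for 24 h to 20 µM FDI-6, a compound described to keep FOXM1 from binding DNA. They were compared with control_FDI-6 cells (n = 3). The study's supplement list names DMSO for this comparison, while a figure legend of the study calls the control cells untreated. The labels give all controls as WT. All groups come from 1 established line, and siRNA knockdown left part of each target transcript in place.

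In G1, mitogens induce D cyclins, which bind CDK4 and CDK6 and start the phosphorylation of the retinoblastoma protein. E cyclins then join CDK2, complete this phosphorylation and free E2F factors, which switch on the genes of S-phase entry. CCND1 is a frequently amplified oncogene, and CDK4 and CDK6 are the targets of a class of cancer drugs.

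CCND3, CDK6, CDK4 and CCNE1 each fell or rose in the siBoth or FDI-6 libraries, though not all in the same direction. Their promoters are shown so that the letters near their start sites can be read beside the values. They come from RefSeq (GRCh38.p14), span 300 bases from 250 before to 50 after the start site, and run 5′ to 3′ along the gene's strand. Windows of 4 of the 8 genes were searched, 7 in all. Capitals mark the words searched on both strands. The CCND3 window is chr6:41941759-41942058 (minus strand), a further CCND3 window from a start site 106880 bases upstream is chr6:42048639-42048938 (minus), the CDK6 window is chr7:92836524-92836823 (minus), the CDK4 window is chr12:57752261-57752560 (minus) and the CCNE1 window is chr19:29811741-29812040 (plus).
CCND3: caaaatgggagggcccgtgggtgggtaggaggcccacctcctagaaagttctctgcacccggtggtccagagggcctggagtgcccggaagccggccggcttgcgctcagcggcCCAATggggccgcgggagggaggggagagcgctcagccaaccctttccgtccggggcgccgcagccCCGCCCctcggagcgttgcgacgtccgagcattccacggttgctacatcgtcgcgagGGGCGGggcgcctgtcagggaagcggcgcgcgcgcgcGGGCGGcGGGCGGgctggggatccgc
CCND3 upstream start: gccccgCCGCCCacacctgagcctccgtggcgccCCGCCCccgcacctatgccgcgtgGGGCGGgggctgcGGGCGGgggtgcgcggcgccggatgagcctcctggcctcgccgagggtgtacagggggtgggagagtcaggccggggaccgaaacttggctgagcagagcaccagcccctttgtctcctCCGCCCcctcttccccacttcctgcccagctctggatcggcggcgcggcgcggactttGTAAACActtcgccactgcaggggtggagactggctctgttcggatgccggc
CDK6: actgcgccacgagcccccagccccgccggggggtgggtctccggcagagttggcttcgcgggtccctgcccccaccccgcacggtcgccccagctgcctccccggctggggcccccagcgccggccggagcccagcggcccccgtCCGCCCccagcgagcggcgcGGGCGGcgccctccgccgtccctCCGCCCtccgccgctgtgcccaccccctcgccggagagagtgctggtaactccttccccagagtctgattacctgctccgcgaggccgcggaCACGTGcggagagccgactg
CDK4: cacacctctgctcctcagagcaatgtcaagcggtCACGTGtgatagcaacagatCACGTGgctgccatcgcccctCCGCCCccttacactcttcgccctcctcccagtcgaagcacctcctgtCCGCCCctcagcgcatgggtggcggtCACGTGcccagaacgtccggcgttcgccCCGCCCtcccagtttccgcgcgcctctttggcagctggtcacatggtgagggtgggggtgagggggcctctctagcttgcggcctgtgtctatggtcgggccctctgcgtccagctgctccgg
CCNE1: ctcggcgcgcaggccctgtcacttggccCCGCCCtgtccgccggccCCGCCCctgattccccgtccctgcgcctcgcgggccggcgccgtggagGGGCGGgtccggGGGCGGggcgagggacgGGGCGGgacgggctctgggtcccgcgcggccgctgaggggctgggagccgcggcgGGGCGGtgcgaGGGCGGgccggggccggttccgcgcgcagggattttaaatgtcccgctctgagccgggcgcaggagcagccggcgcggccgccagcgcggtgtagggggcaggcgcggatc

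The 9 words searched were the E2F words TTTCCCGC and TTTGGCGC, the cell cycle homology region (CHR) words TTTGAA and TTCGAA, the MYB word AACGG, the forkhead word TGTTTAC, the E-box CACGTG, the CCAAT box CCAAT and the GC box GGGCGG. No word searched contains another. Neither E2F word nor either CHR word occurred in any of the 7 windows. No window of CCND1, CCND2, CDK2 or CCNE2 was searched, so these absences do not extend to those genes. CCNE2, the member on the S-phase list, was thus left out of the search. Over the 35116 promoters of the table, TTTCCCGC was in 1.63%, TTTGGCGC in 0.652%, TTTGAA in 15.2% and TTCGAA in 1.45%. The forkhead word, in 3.42% of all promoters, occurred once, at the upstream CCND3 start (position -2 from the start site, read as GTAAACA on the gene's strand). The MYB word, in 19.7% of promoters, was in a further CDK6 window that is not printed, at position -7. CDK4 held 3 copies of the E-box, which was in 7.26% of promoters, at positions -216, -196 and -101, and CDK6 held 1 at position 31. CCAAT, in 34.6% of promoters, was at position -136 of the printed CCND3 window. GC boxes, in 45% of promoters, numbered 7 in CCNE1, 4 in CCND3, 5 at its upstream start, and 3 each in CDK4 and CDK6. These matches are letters in a window and were not tested as binding sites.

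The libraries held 16487394 to 30140550 read pairs assigned to genes. MYBL2 stood at 6.38 ± 1.88 CPM (counts scaled for library size, with the trimmed mean of M values, and given as mean ± SD) in siMYBL2 against 154 ± 18.9 in siControl, and FOXM1 at 12.1 ± 1.30 in siFOXM1 against 126 ± 12.98. In siBoth the pair stood at 8.54 ± 2.02 and 13.2 ± 2.65 CPM, against 174 ± 17.2 and 137 ± 9.17 in its controls. FOXM1 also fell in siMYBL2 (log2 fold change -0.73) and MYBL2 and FOXM1 fell in FDI-6 (-0.51 and -0.37). The 3 libraries numbered 4, 1 each of siMYBL2, siFOXM1 and siControl, stood apart together, with high CCND3 in siFOXM1 and siControl and with low CDK4 and CCNE1 in all 3. Pairs that did not align made up 9.09% to 10.9% in siBoth and 7.68% to 7.92% in its controls, against 1.73% to 3.03% elsewhere. Of 10 lung epithelial markers, 7 reached 1 CPM in every group, and their summed level was 6022 to 6944 CPM in FDI-6 and 9807 to 10590 in its controls, a gap whose part in the results was not tested. Of the markers of other cells, 1 of 4 blood, 1 of 4 fibroblast and 0 to 2 of 3 endothelial genes reached 1 CPM, and CD3E was at 0 in all groups. The summed blood markers were at 5.22 to 7.65 CPM in siBoth against 2.79 to 3.07 in its controls, at 2.85 to 3.55 in FDI-6 against 1.67 to 1.93, and at 2.60 to 6.77 in siMYBL2 against 0.802 to 3.52. The summed fibroblast markers were at 5.76 to 9.57 in FDI-6 against 17.6 to 19.2, and the part of either list in the results was not tested.

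Among the D cyclins, CCND3 fell in siMYBL2, siBoth and FDI-6, and CCND1 rose in FDI-6. CCND1 stood lower in siFOXM1, a difference whose call depended on the fit. The test was edgeR's quasi-likelihood test, with p adjusted by Benjamini-Hochberg over all genes tested, and a gene is called past the test at an adjusted p under 0.05. It had 7 of the 8 genes to test. In bulk libraries, fewer cells holding a transcript and less of it per cell cannot be told apart.

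**Figure D1:**
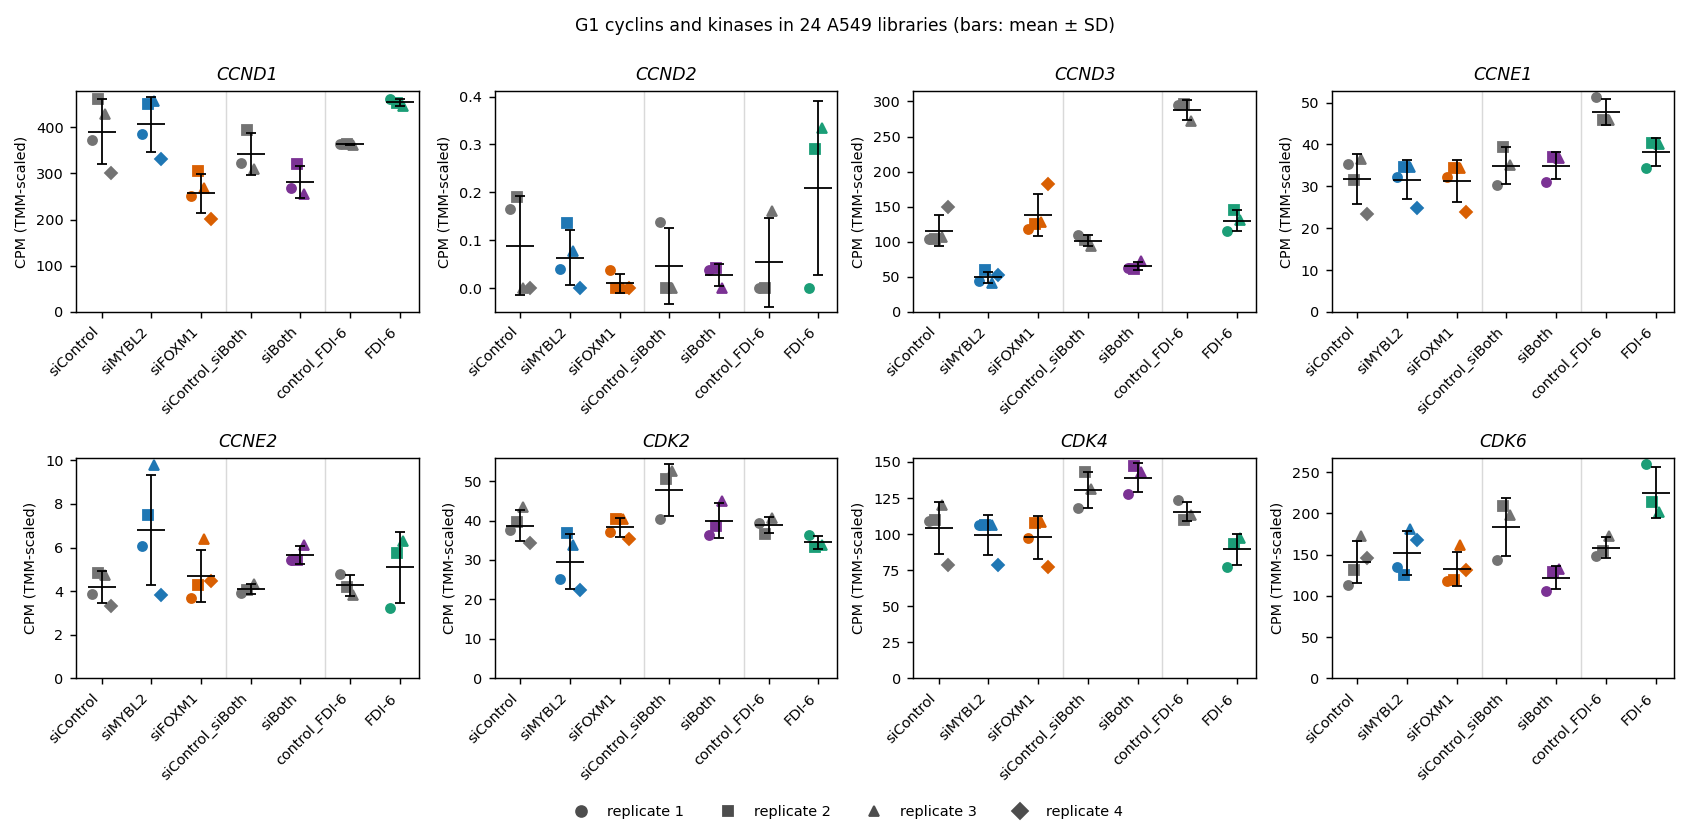
Level of each gene in CPM (vertical axes, scaled by the trimmed mean of M values) in the 24 libraries, by group, with marker shape for the replicate number and bars for mean ± SD. CCND3 in siMYBL2 (41.6 to 59.7 CPM) lies below all its controls (103.5 to 149.6), and CCND2 never exceeds 0.334 CPM.

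CCND3 (ENSG00000112576.12, chr6:41934934-42050357, minus strand, hg38) encodes cyclin D3, which is prominent in lymphoid cells and also serves other tissues. In siMYBL2 its level was 44.5, 59.7, 41.6 and 52.1 CPM in replicates 1 to 4. In siControl it was 103.5, 104.6, 106.6 and 149.6 CPM. Every siMYBL2 library thus lay below every control library. CCND3 fell to 42.7% of control (log2 fold change -1.23 ± 0.15 SE, edgeR adjusted p = 0.000968), lower in 4 of 4 number-matched pairs. Such a lack of overlap was seen for 24.1% of genes that had 10 or more counts in each library of the comparison.

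In siBoth CCND3 stood at 62.2, 61.9 and 72.2 CPM, and in siControl_siBoth at 109.5, 102.1 and 93.6. The groups again did not overlap, as was so for 36.2% of genes here. CCND3 fell to 64.4% of control (log2 fold change -0.64 ± 0.10, edgeR adjusted p = 0.00601). In FDI-6 CCND3 was at 114.7, 145.1 and 131.0 CPM, and in control_FDI-6 at 295.7, 296.1 and 272.2. It fell to 45.2% of control (log2 fold change -1.15 ± 0.09, edgeR adjusted p = 2.5e-06), in a comparison where 54.0% of genes had groups that did not overlap. The compound's controls started from a CCND3 level above that of both scrambled controls, and the FDI-6 libraries lay within the siControl range from 103.5 to 149.6 CPM to which they were not matched.

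With FOXM1 knocked down, CCND3 did not fall. Its level in siFOXM1 was 117.7, 125.2, 128.7 and 182.6 CPM against the siControl values above. The groups overlapped, yet each siFOXM1 library exceeded the control of its own number, by 0.19 to 0.29 on the log2 scale. The log2 fold change was 0.25 ± 0.16 (edgeR adjusted p = 0.608), and when replicate numbers entered the fit as a block it was 0.25 ± 0.03 (edgeR adjusted p = 2.01e-06). No more than 9.84% of genes in this comparison had groups that did not overlap, and none of the 8 genes was among them.

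CCND1 (ENSG00000110092.3, chr11:69641156-69654474, plus strand) encodes cyclin D1, the D cyclin most tied to mitogen signalling and to carcinomas. In siFOXM1 it stood at 251.7, 305.1, 268.9 and 202.1 CPM, and in siControl at 371.3, 461.9, 427.6 and 301.4. Replicate 4 of siControl fell inside the siFOXM1 range, but within each number the siFOXM1 library was the lower one, by 0.56 to 0.67 on the log2 scale. Without the block the log2 fold change was -0.61 ± 0.16 (edgeR adjusted p = 0.112), and DESeq2 gave the same size with an adjusted p of 0.0069. With the block CCND1 fell, at 65.6% of control (log2 fold change -0.61 ± 0.03, edgeR adjusted p = 2.07e-14). Unblocked edgeR fits were also past the threshold without replicate 4 of siControl (adjusted p = 0.0471) and without all 3 libraries numbered 4 (0.027). So were those with no filter on low counts (0.0468) and in 1 fit of all 24 libraries (0.0103). Of the 8 fits that left out 1 library, only 1 was past it (edgeR adjusted p from 0.0471 to 0.284). Fits with RLE or upper-quartile scaling were not (edgeR adjusted p = 0.111 and 0.113).

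Knockdown of MYBL2 left CCND1 near its control level. The 4 siMYBL2 libraries were at 385.9, 449.4, 456.9 and 331.6 CPM, overlapping siControl, with a log2 fold change of 0.06 ± 0.15 (edgeR adjusted p = 0.831). In siBoth the gene was at 268.0, 319.6 and 256.1 CPM against 323.3, 394.9 and 309.6. Every siBoth library was the lower of its pair, by 0.27 to 0.31 on the log2 scale, and the call turned on the block. The log2 fold change was -0.28 ± 0.13 without it (edgeR adjusted p = 0.172) and -0.28 ± 0.07 with it (edgeR adjusted p = 0.00355).

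Under FDI-6 CCND1 rose. The treated libraries held 461.8, 451.9 and 446.8 CPM and the controls 363.2, 364.2 and 362.5. Both groups were tight and did not overlap, and the log2 fold change was 0.32 ± 0.05 (edgeR adjusted p = 0.000793). CCND1 shares 10.4% of its exon bases with LTO1 on the opposite strand, and the strand setting of the counting is not stated in the sources used here.

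CCND2 (ENSG00000118971.7, chr12:4269771-4305353, plus strand), which encodes cyclin D2, was close to absent from these libraries. It had 36 read pairs in all 24 libraries, at most 6 in 1 library, and 0 in 12 libraries. A count of 0 allows a level of up to 0.0988 to 0.182 CPM (3 counts) depending on depth, for counting error only. The filter on low counts removed it, and no fold change is given.

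**Figure D2:**
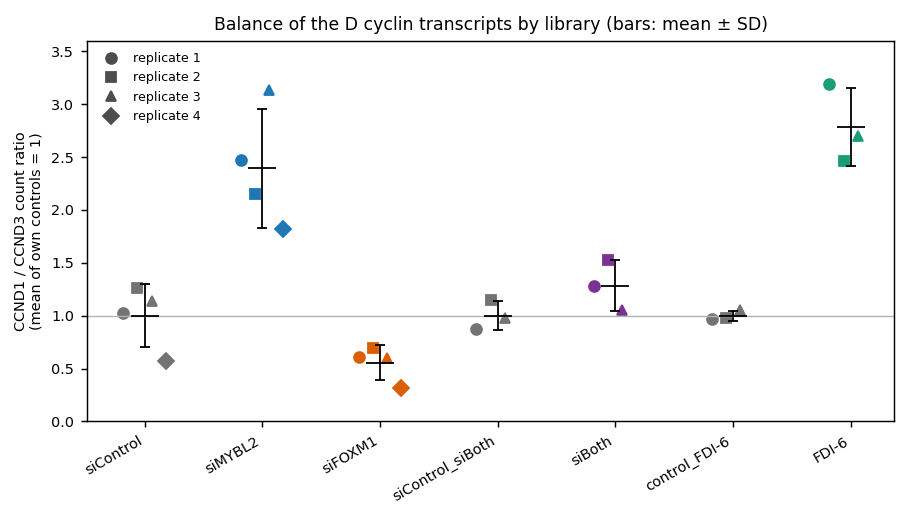
Ratio of CCND1 to CCND3 counts in each library (vertical axis, relative to the mean ratio of its own control group, set to 1), by group, with bars for mean ± SD. siMYBL2 and FDI-6 lie at 1.82 to 3.19, above all their controls, while siFOXM1 lies at 0.316 to 0.695.

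The balance between the 2 expressed D cyclins moved in different directions. The CCND1 to CCND3 count ratio was 2.39 ± 0.563 times its control mean in siMYBL2 (n = 4, 1.82 to 3.14) and 2.78 ± 0.368 in FDI-6 (n = 3, 2.47 to 3.19). It was 0.554 ± 0.165 in siFOXM1 (n = 4) and 1.29 ± 0.239 in siBoth (n = 3). The siControl libraries ranged from 0.575 to 1.26, and replicate 4 alone was under 1, so that siFOXM1 overlapped it. The ratio is a description of the same counts and was not tested. It does not depend on transcript length or on scaling between libraries.

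Of the kinases that partner D cyclins, CDK6 fell in siBoth and rose in FDI-6, while CDK4 fell in FDI-6. CDK6 (ENSG00000105810.9, chr7:92604921-92836573, minus strand) was at 105.7, 128.6 and 132.5 CPM in siBoth and at 143.0, 208.8 and 198.5 in its controls. The groups did not overlap, the lowest control being replicate 1, which paired with the lowest siBoth library. CDK6 fell by 0.58 ± 0.15 on the log2 scale (edgeR adjusted p = 0.0432), and the block gave a log2 fold change of -0.57 ± 0.07 (edgeR adjusted p = 1.43e-05). This call was weak without the block, as leaving out single libraries kept it in 2 of 6 fits, with edgeR adjusted p from 0.0121 to 0.132. It was lost without replicate 1 or 2 of siBoth and without replicate 2 or 3 of siControl_siBoth, and also with upper-quartile scaling.

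In FDI-6 CDK6 was at 260.1, 213.7 and 202.1 CPM, above the 148.7, 154.3 and 172.9 of its controls. It rose by a log2 fold change of 0.50 ± 0.09 (edgeR adjusted p = 0.00149), with replicate 1 the highest. The single knockdowns left it within the control range or close to it. The level ran from 125.5 to 180.9 CPM in siMYBL2, from 118.1 to 161.9 in siFOXM1 and from 113.6 to 173.2 in siControl (log2 fold changes 0.11 ± 0.15 and -0.10 ± 0.14, edgeR adjusted p = 0.665 and 0.874).

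CDK4 (ENSG00000135446.16, chr12:57747727-57756013, minus strand) was at 77.5, 93.4 and 97.4 CPM in FDI-6 and at 123.3, 110.1 and 113.5 in its controls. It fell by 0.37 ± 0.09 on the log2 scale (edgeR adjusted p = 0.00716), with no overlap between the groups. In the single knockdowns it stayed near 100 CPM except in the 3 libraries numbered 4, at 77.03 to 78.4. The log2 fold changes were -0.07 ± 0.15 in siMYBL2 and -0.10 ± 0.15 in siFOXM1 (edgeR adjusted p = 0.786 and 0.869), and the block put the siFOXM1 difference past the test (edgeR adjusted p = 0.0416), lower in 4 of 4 pairs. In siBoth the log2 fold change was 0.09 ± 0.10 (edgeR adjusted p = 0.579). CDK4 shares 44.2% of its exon bases with TSPAN31 on the opposite strand, so the counts of the gene may miss or include pairs of its neighbour.

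Of the E cyclins and CDK2, which act at the end of G1, CCNE1 alone was past the test without the block, in FDI-6. CCNE1 (ENSG00000105173.13, chr19:29811991-29824312, plus strand), which encodes cyclin E1, fell in FDI-6, from 51.3, 45.9 and 45.9 CPM in the controls to 34.4, 40.4 and 40.0 CPM. The groups did not overlap, and the log2 fold change was -0.32 ± 0.09 (edgeR adjusted p = 0.0157). Without replicate 1 of control_FDI-6, its highest library, the call was lost (edgeR adjusted p = 0.086). In the 3 siRNA comparisons the log2 fold change of CCNE1 lay from -0.031 to -0.00098, each with an SE of 0.12 to 0.16, and in siMYBL2 and siBoth its sign changed with the scaling.

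CDK2 (ENSG00000123374.10, chr12:55966781-55972789, plus strand) stood at 25.2, 36.9, 33.9 and 22.3 CPM in siMYBL2 and at 37.5, 39.7, 43.5 and 34.2 in siControl. Each siMYBL2 library was the lower of its pair, though the groups overlapped. The log2 fold change was -0.39 ± 0.16 without the block (edgeR adjusted p = 0.131) and -0.40 ± 0.08 with it (edgeR adjusted p = 0.000662). In siBoth CDK2 was at 36.3, 38.6 and 45.1 CPM against 40.3, 50.6 and 52.5, again lower in 3 of 3 pairs, with a log2 fold change of -0.26 ± 0.13 (edgeR adjusted p = 0.214, and 0.0203 with the block). In siFOXM1 it differed from control by -0.02 ± 0.09 on the log2 scale, and in FDI-6 by -0.18 ± 0.08 (edgeR adjusted p = 0.112), although the FDI-6 groups did not overlap. CDK2 shares 16.8% of its exon bases with genes on the opposite strand.

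CCNE2 (ENSG00000175305.17, chr8:94879770-94896678, minus strand), which encodes cyclin E2, was the lowest of the genes tested. Its level was 6.06, 7.52, 9.80 and 3.82 CPM in siMYBL2 against 3.85, 4.85, 4.74 and 3.34 in siControl. Each siMYBL2 library was the higher of its pair, and replicate 4 lay among the controls. The log2 fold change was 0.70 ± 0.27 without the block (edgeR adjusted p = 0.109) and 0.67 ± 0.13 with it (edgeR adjusted p = 0.0008). In siBoth the 3 libraries held 5.42, 5.41 and 6.13 CPM against 3.90, 4.03 and 4.33, with a log2 fold change of 0.47 ± 0.16 (edgeR adjusted p = 0.0869, and 0.0265 with the block). The siFOXM1 and FDI-6 differences were 0.16 ± 0.20 and 0.26 ± 0.23 (edgeR adjusted p = 0.847 and 0.408). CCNE2 shares 37.1% of its exon bases with opposite-strand genes, nearly all with INTS8.

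**Figure D3:**
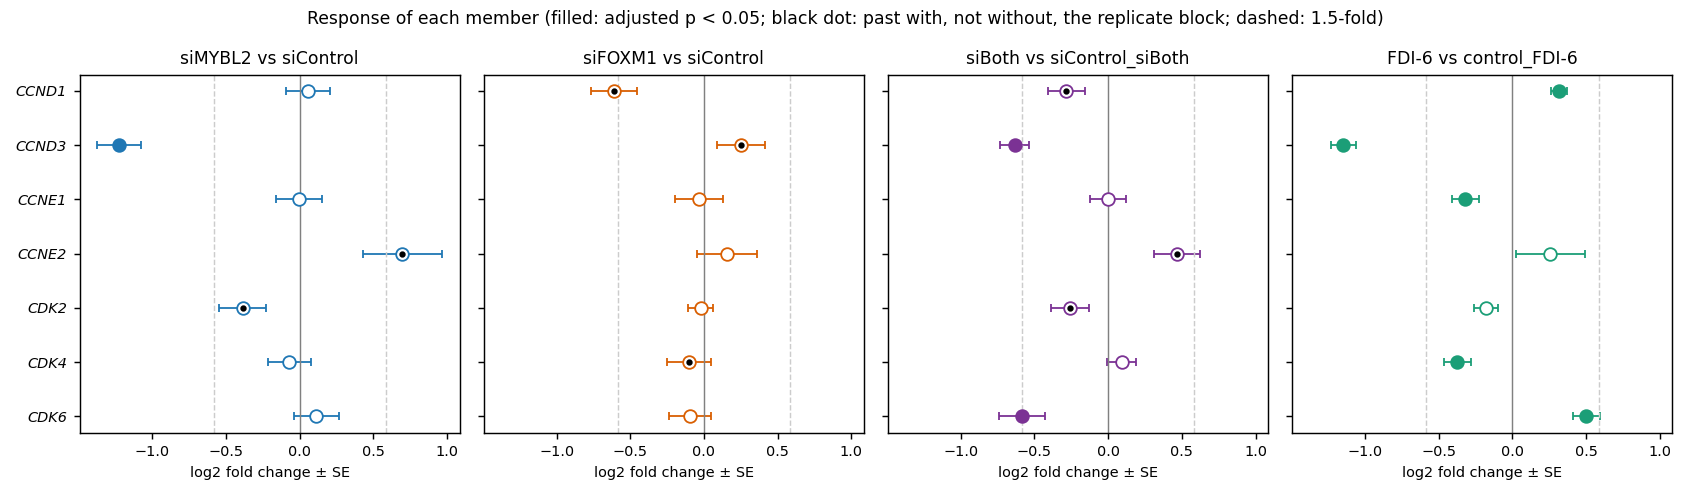
Log2 fold change ± SE (horizontal axes) of the 7 genes tested, in the 4 comparisons of treatment with own control. Filled points are past the test, black dots mark genes past it with the replicate block and not in the same fit without it, and dashed lines mark a 1.5-fold change. CCND3 lies at -1.23, 0.25, -0.64 and -1.15.

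Counted over the genes tested, 1 of 7 was past the test in siMYBL2 (CCND3), 2 of 7 in siBoth (CCND3 and CDK6) and 5 of 7 in FDI-6 (CCND1, CCND3, CCNE1, CDK4 and CDK6). Among all genes, 18.1% were past it in siMYBL2, 12.3% in siBoth and 38.9% in FDI-6. In 1 fit of all 24 libraries, CCND3 and CDK6 alone were past it in FDI-6, beside 2722 genes that rose and 2110 that fell of 17752. In siFOXM1 none of the 7 passed edgeR's test, beside 1.37% of all genes. CCND1 alone had an unadjusted edgeR p under 0.05, beside 2060 of 15892 genes. By DESeq2 CCND1 alone was past the threshold, beside 211 genes that rose and 466 that fell. With the block the counts were 3 in siMYBL2, 3 in siFOXM1 and 5 in siBoth, and the background rose to 46.7%, 26.3% and 34.8%. In edgeR without the block, with a change of over 1.5 times required as well, CCND3 alone remained in siMYBL2, siBoth and FDI-6. No gene remained in siFOXM1, and the shares of all genes were 7.90%, 6.44%, 13.8% and 0.667%. By DESeq2, the study's tool, CCND1 was past both limits in siFOXM1 (1.527-fold, DESeq2 adjusted p = 0.0069), beside 25 genes that rose and 127 that fell. The edgeR fits with the block, with no filter, of all 24 libraries and without those numbered 4 also put it past both. CCNE2 in siMYBL2 was past both with the block, in the fit of all 24 libraries and without those numbered 4. In siBoth CDK6 lay at the fold limit (log2 fold change -0.585, 1.5-fold). It was past both limits with no filter on low counts and in 1 fit of all 24 libraries. The median log2 fold change of the tested members was -0.0032 in siMYBL2, -0.031 in siFOXM1, -0.26 in siBoth and -0.18 in FDI-6, against 0.015, 0.0025, 0.017 and -0.012 over all genes. The siMYBL2 and siFOXM1 comparisons share their 4 control libraries.

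Set directly against each other, the single knockdowns differed in both expressed D cyclins. CCND1 was higher in siMYBL2 than in siFOXM1 (log2 difference 0.66 ± 0.14, edgeR adjusted p = 0.00977) and CCND3 was lower (-1.48 ± 0.16, edgeR adjusted p = 0.000318), each in 4 of 4 pairs and with no overlap. The share of all genes without overlap was not computed for this comparison. Past edgeR's test were these 2 of 7, beside 23.2% of all genes. The block added CCNE2 (0.50 ± 0.15, edgeR adjusted p = 0.0129), CDK2 (-0.39 ± 0.08, edgeR adjusted p = 0.0012) and CDK6 (0.20 ± 0.05, edgeR adjusted p = 0.00289), beside 48.9% of all genes.

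The siBoth and siMYBL2 effects on the expressed D cyclins and CDK6 differed past the test only in the fit with the block. The siBoth effect minus the siMYBL2 effect, each against its own controls, was 0.59 ± 0.20 for CCND3, -0.34 ± 0.22 for CCND1 and -0.70 ± 0.24 for CDK6 on the log2 scale. None of the 7 passed edgeR's test without the block (edgeR adjusted p = 0.48, 0.774 and 0.492), beside 0.176% of all genes. At an unadjusted edgeR p under 0.05 there were 2, beside 1323 of 17012 genes. By DESeq2 there were 0, beside 25 genes higher and 113 lower. With the block CCND3, CCND1 and CDK6 were past edgeR's test (edgeR adjusted p = 0.0159, 0.00667 and 0.000286), beside 7.05% of all genes. The knockdowns were done in separate experiments, and experiment and treatment cannot be told apart in this contrast.

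FDI-6 and FOXM1 knockdown differed in 3 of 7 genes, beside 20.9% of all genes. The FDI-6 effect minus the siFOXM1 effect was 0.92 ± 0.19 for CCND1 (edgeR adjusted p = 0.00368), -1.40 ± 0.22 for CCND3 (edgeR adjusted p = 0.000534) and 0.60 ± 0.20 for CDK6 (edgeR adjusted p = 0.0448). The CCND1 and CCND3 differences held in all 14 fits that left out 1 library, and the CDK6 difference in 3 of 14 (edgeR adjusted p from 0.016 to 0.125). The CDK6 difference was also lost with upper-quartile scaling (edgeR adjusted p = 0.0701), in 1 fit of all 24 libraries (0.0631) and without the libraries numbered 4 (0.0586). Both expressed D cyclins thus had opposite signs under the compound and the siRNA. The experiments also differ in transfection, which cannot be told apart from the target in this contrast.

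Compared per kilobase of exon, CCND1 was the most abundant member in every group with the length of all merged exons, at 82.0 ± 14.7 CPM per kb in siControl. It was followed by CDK4 at 33.8 ± 5.85, CCND3 at 20.2 ± 3.89, CCNE1 at 12.9 ± 2.42, CDK6 at 11.5 ± 2.07, CDK2 at 9.96 ± 1.01 and CCNE2 at 0.954 ± 0.165 CPM per kb. CCNE1, CDK6 and CDK2 were neighbours whose ranges overlapped, so their order is not set by these libraries. In control_FDI-6 CCND3 ranked above CDK4, at 49.99 ± 2.37 against 37.4 ± 2.20 CPM per kb. The length chosen moved the order, most for CCND3, whose merged exons span 5761 bases and whose canonical transcript spans 2026. Per kilobase of canonical transcript it reached 57.3 ± 11.1 CPM in siControl and 142 ± 6.75 in control_FDI-6, there above CCND1 at 85.7 ± 0.203. With canonical lengths CCND1 was also second in siFOXM1 (60.6 ± 10.1, against 68.4 ± 14.7 for CCND3) and in siBoth (66.4 ± 7.96, against 74.6 ± 5.52 for CDK4), and in both groups the ranges of the pair overlapped.

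The genes around these cyclins were read from 7 lists of the G1/S pathway, 51 genes in all, of which 49 were tested. In siMYBL2 2 rose and 10 fell, in siFOXM1 0 rose and 1 fell, in siBoth 1 rose and 12 fell, and in FDI-6 11 rose and 12 fell. The share of all genes past the test in either direction was 18.1%, 1.37%, 12.3% and 38.9%. By direction, 1371 rose and 1531 fell of 16065 genes in siMYBL2, and 44 and 173 of 15892 in siFOXM1. In siBoth 720 rose and 1229 fell of 15812, and in FDI-6 3200 and 2735 of 15240. With the block the list counts were 9 and 26 in siMYBL2, 7 and 11 in siFOXM1, and 4 and 19 in siBoth, beside 46.7%, 26.3% and 34.8% of all genes. The median log2 fold change over the 49 was -0.14, -0.027, -0.14 and -0.010.

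**Figure D4:**
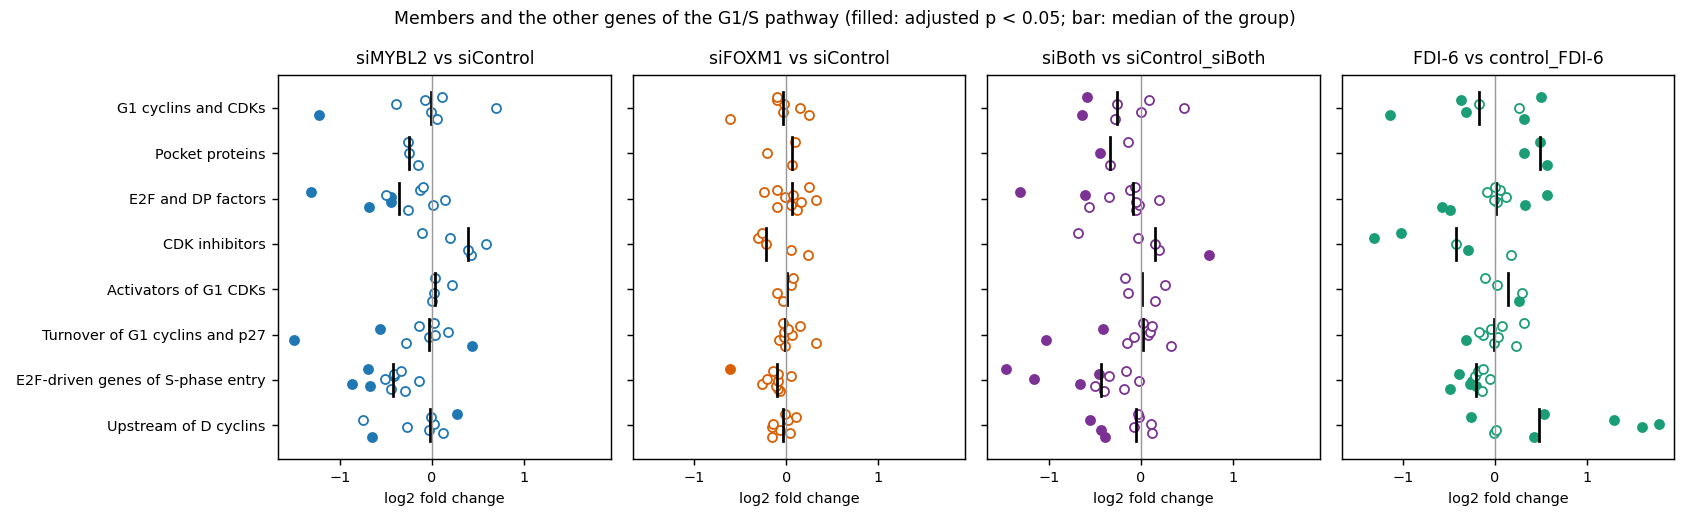
Log2 fold change (horizontal axes) of the members and of the 7 pathway lists in the 4 comparisons, with 1 point per gene tested, filled where past the test, and a bar at each group's median. The upstream genes FOSL1, JUN and EGFR stand at 1.29 to 1.78 in FDI-6.

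Downstream of the kinases, 3 of 10 E2F-driven genes of S-phase entry fell in siMYBL2, 1 in siFOXM1, 4 in siBoth and 5 in FDI-6, and none rose in these fits. Of all genes, 9.53%, 1.09%, 7.77% and 17.9% fell. With the block 10, 5 and 7 of them fell in the 3 siRNA comparisons, beside 23.1%, 14.0% and 18.5% of all genes. CCNA2, the S-phase cyclin, fell by 0.70 ± 0.15 on the log2 scale in siMYBL2 (edgeR adjusted p = 0.013), by 0.61 ± 0.10 in siFOXM1 (edgeR adjusted p = 0.0262) and by 1.46 ± 0.10 in siBoth (edgeR adjusted p = 0.000257). In FDI-6 its log2 fold change was -0.14 ± 0.09 (edgeR adjusted p = 0.259). RRM2, a subunit of ribonucleotide reductase, fell in siBoth (-1.16 ± 0.08, edgeR adjusted p = 0.000294). CDT1, a replication licensing factor, fell in FDI-6 (-0.49 ± 0.10, edgeR adjusted p = 0.00305).

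Of the E2F and DP factors, 4 of 10 fell in siMYBL2, 2 in siBoth, and 2 rose and 2 fell in FDI-6, with 0 past edgeR's test in siFOXM1. Of all genes, 9.53% fell in siMYBL2, 7.77% in siBoth and 17.9% in FDI-6, where 3200 of 15240 rose. With the block 7 factors fell in siMYBL2 and 4 in siBoth, beside 23.1% and 18.5% of all genes. In siFOXM1 3 rose and 2 fell with it, beside 26.3% of all genes past the test in either direction. E2F8, an atypical repressive E2F, fell by 1.31 on the log2 scale in both siMYBL2 and siBoth (edgeR adjusted p = 0.000831 and 0.00278) and stood at -0.24 and -0.08 in siFOXM1 and FDI-6. E2F7, its close relative, went opposite ways, with -0.60 ± 0.12 in siBoth (edgeR adjusted p = 0.0187) and 0.56 ± 0.10 in FDI-6 (edgeR adjusted p = 0.000862). The activators E2F1 and E2F2 fell in FDI-6 (-0.49 ± 0.08 and -0.57 ± 0.10, edgeR adjusted p = 0.000588 and 0.00111). All 3 pocket proteins, the substrates of these kinases, rose in FDI-6, RB1 by a log2 fold change of 0.57 ± 0.09, RBL2 by 0.48 ± 0.08 and RBL1 by 0.32 ± 0.10 (edgeR adjusted p = 0.000459, 0.000868 and 0.0244). RBL1 fell in siBoth (-0.44 ± 0.10, edgeR adjusted p = 0.0252). With the block all 3 pocket proteins fell in siMYBL2, 2 fell in siBoth, and 1 rose and 1 fell in siFOXM1.

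Of the 5 CDK inhibitors tested, 3 fell in FDI-6, 1 rose in siBoth and 0 were past edgeR's test in the single knockdowns. Of all genes, 17.9% fell in FDI-6 and 720 of 15812 rose in siBoth. With the block 4 inhibitors rose in siMYBL2, 1 rose and 1 fell in siFOXM1, and 2 rose and 1 fell in siBoth. The share of all genes past the test with it, in either direction, was 46.7%, 26.3% and 34.8%. CDKN2C, which encodes the CDK4 and CDK6 inhibitor p18, fell by 1.32 ± 0.12 on the log2 scale in FDI-6 (edgeR adjusted p = 1.38e-05), and CDKN2D, which encodes p19, fell by 1.03 ± 0.21 (edgeR adjusted p = 0.00279). CDKN1B, which encodes p27, also fell there (-0.29 ± 0.09, edgeR adjusted p = 0.0263), while in siMYBL2 it stood at 0.40 ± 0.13 (edgeR adjusted p = 0.0661, and 5.61e-06 with the block). CDKN1A, which encodes p21, rose in siBoth (0.74 ± 0.19, edgeR adjusted p = 0.0373), and in siMYBL2 it stood at 0.43 ± 0.16 (edgeR adjusted p = 0.0897, and 3.98e-05 with the block). The CDK-activating kinase CDK7 rose in FDI-6 (0.26 ± 0.09, edgeR adjusted p = 0.0366, and 0.0643 with the block), the only call among 4 activators in the 4 comparisons without the block. With it 1 activator rose in siMYBL2 and 1 in siBoth.

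Among genes of cyclin and p27 turnover, CKS1B, a cofactor of the ligase that destroys p27, fell by 1.502 ± 0.14 in siMYBL2 and by 1.03 ± 0.12 in siBoth on the log2 scale (edgeR adjusted p = 0.000337 and 0.00205). FBXO31, an F-box protein that binds cyclin D1, fell in the same comparisons (-0.56 ± 0.08 and -0.41 ± 0.10, edgeR adjusted p = 0.00218 and 0.0335). FBXW7, which directs cyclin E to destruction, rose in siMYBL2 (0.44 ± 0.10, edgeR adjusted p = 0.0178). Of the 9 turnover genes, 1 rose and 2 fell in siMYBL2, 2 fell in siBoth and 1 fell in FDI-6, and with the block 2 rose and 3 fell in siMYBL2, 2 rose in siFOXM1, and 1 rose and 2 fell in siBoth. Upstream of the D cyclins, 5 of 8 genes rose and 1 fell in FDI-6, where 3200 of 15240 genes rose. In siMYBL2 1 rose and 1 fell (2 and 3 with the block), and 3 fell in siBoth. In siFOXM1 0 were past edgeR's test (2 fell with the block). For the turnover and upstream lists, the share of all genes past the test was 18.1% in siMYBL2, 1.37% in siFOXM1, 12.3% in siBoth and 38.9% in FDI-6. With the block it was 46.7%, 26.3% and 34.8% in the siRNA comparisons. In FDI-6 the AP-1 subunits FOSL1 and JUN rose by log2 fold changes of 1.78 ± 0.14 and 1.60 ± 0.11 and the receptor EGFR by 1.29 ± 0.07 (edgeR adjusted p = 2.79e-06, 1.11e-06 and 1.25e-07). GSK3B, a kinase that marks cyclin D1 for export and degradation, rose in FDI-6 and siMYBL2 (0.54 ± 0.07 and 0.27 ± 0.06, edgeR adjusted p = 0.000137 and 0.0188). EGFR fell in siBoth (-0.55 ± 0.15, edgeR adjusted p = 0.0442).

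Across the 24 libraries, levels on the log2 CPM scale were set against the mean of each library's own controls. Of 11064 genes with a mean of at least 5 CPM, those with a symbol, other than the members, were searched for the highest correlations. CCND1 was most like TNFAIP8 and PTPN14 (Pearson's r = 0.943 and 0.941) and CCND3 most like FAM234A and LMO4 (0.952 and 0.947). Outside the members CCNE1 was nearest to ATAD3A and RNPS1 (0.924 and 0.919) and CDK4 to ATAD3A and COPRS (0.948 and 0.933). CCNE1 and CDK4 were closer to each other (r = 0.949) than to those genes, while CCND1 and CCND3 stood at -0.572. CDK2 was nearest to MCM4 and CHAF1B (0.941 and 0.937), both genes of DNA replication, CDK6 to PCNX1 and BMPR2 (0.879 and 0.877) and CCNE2 to PLEKHG4 and SEC14L2 (0.777 and 0.771). These libraries share controls and replicate numbers, and the coefficients are descriptions with no test.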

How the data were processed

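RNA-seq was measured in 24 libraries of A549 cells in 7 groups (polyA capture, paired-end). The authors trimmed reads with Trim Galore, aligned them to hg38 with STAR and counted pairs per gene with HTSeq. The deposited values are raw counts per gene of 58721 rows, and the strand setting is not given in the sources used here. Rows that name no gene stayed out of library sizes. Pairs assigned to more than 1 gene, left out by HTSeq, were 7.88% to 11.2%. Gene names came from GENCODE V44, which matched 58207 IDs. The promoter windows came from RefSeq.

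Counts were filtered with filterByExpr, scaled by TMM and tested with edgeR 4.0.16 (R 4.3.3) by glmQLFTest, each comparison on its own groups, or on the 4 groups of both treatments for a difference of effects. An adjusted p (Benjamini-Hochberg) under 0.05 counted as past the test, and the study's 1.5-fold limit was added where stated. SE is the log2 fold change divided by the root of F. CPM were scaled by TMM over all libraries, with 16487394 to 30140550 pairs per library. Intervals and floors cover counting error only. DESeq2 1.42.0 and the settings described below were alternatives. The script was tested on simulated counts.

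Libraries of 1 number deviated together from their group means in the siRNA comparisons (r of 0.570 to 0.874 in siMYBL2, 0.537 to 0.905 in siFOXM1, 0.552 to 0.687 in siBoth, 0.522 to 0.863 for siMYBL2 against siFOXM1), every pair above 0.1, so the fit with the replicate number as a block is given where it changes the call of a member or the counts of a list. The pairing comes from the numbers in the labels and these correlations. No replicates agreed within sampling noise. The text names all 8 members, MYBL2 and FOXM1, up to 4 genes per pathway list with the lowest adjusted p in any treatment comparison, and the 2 genes most like each member. The values of 1 gene that this rule names are not reported here. The members and lists were chosen with earlier results of these data known.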

Additional observations from a re-analysis of the deposited data

Results flagged for a closer look

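In the 24 combinations of the 8 genes with the 3 groups of 4 libraries, 4 had a library whose gap to its nearest neighbour was large for the range of the group (Dixon's criterion at 95%, which chance meets in about 1 in 20 groups). CCND3 in siControl had its highest library at 149.6 CPM (replicate 4, the others at 103.5 to 106.6) and CCND3 in siFOXM1 had its highest at 182.6 CPM (replicate 4, the others at 117.7 to 128.7). CDK4 in siMYBL2 had its lowest at 78.34 CPM (replicate 4, the others at 106.1 to 106.3), beside 77.03 CPM in siFOXM1 and 78.4 CPM in siControl for the libraries of the same number. CCND2 in siFOXM1 had its highest library at 0.03857 CPM, which is 1 read pair against 0 in the others. With the 3 libraries numbered 4 left out, CCND3 was still past the test in siMYBL2.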

How the results depend on the processing

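Without the block, the counts of genes past the test were 1 in siMYBL2, 0 in siFOXM1, 2 in siBoth and 5 in FDI-6. The replicate block gave 3 in siMYBL2, 3 in siFOXM1 and 5 in siBoth. It gave 5 for siMYBL2 against siFOXM1 and 3 for the siBoth effect against the siMYBL2 effect. For the FDI-6 effect against the siFOXM1 effect it gave 5, beside 3409 genes higher and 3114 lower of 17026. In FDI-6, libraries of 1 number did not deviate together (r of -0.286 to 0.159), and the block changed no member's call there. It took the pathway lists from 11 that rose and 12 that fell to 10 and 11 (CDK7 and 1 E2F-driven gene lost). In 1 fit of all 24 libraries the counts were 3 in siMYBL2 (CCNE2 and CDK2 added), 1 in siFOXM1 and 2 in FDI-6. Of the 17752 genes in that fit, 1735 rose and 2044 fell in siMYBL2, 124 and 310 in siFOXM1, and 2722 and 2110 in FDI-6. DESeq2 and the fit with no filter on low counts each gave 1 in siFOXM1, and upper-quartile scaling gave 1 in siBoth. For the FDI-6 effect against the siFOXM1 effect, upper-quartile scaling, the fit of all 24 libraries and the fit without the libraries numbered 4 gave 2 each, against 3. A fold limit of 1.5 left 1 in siBoth and 1 in FDI-6. Without the 3 libraries numbered 4, an alternative chosen after seeing the data, the count was 2 in siMYBL2 (with CCNE2) and 1 in siFOXM1 (CCND1). The causes of these shifts were not tested. RLE scaling changed no call. CCNE1 changed sign, with no call, at 0.047 (siMYBL2, upper-quartile), 0.0045 (siMYBL2, block), 0.075 (siBoth, upper-quartile), 0.0032 (siBoth, block), and at -0.019 (no filter) and -0.0032 (block) for the siBoth effect against the siMYBL2 effect.

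Leaving out 1 library at a time, the count ran from 1 to 2 in siMYBL2, from 0 to 1 in siFOXM1 and from 1 to 2 in siBoth. In FDI-6 it ran from 4 to 7, where 7 came without FDI-6 replicate 1 (CCNE2 and CDK2 added). That fit had 3490 genes that rose and 3136 that fell of 15632. The count of 4 came without control_FDI-6 replicate 1, beside 2236 genes that rose and 1712 that fell of 15636. CCND3 was past the test in all 8 such fits of siMYBL2, all 6 of siBoth and all 6 of FDI-6. The log2 fold changes that changed sign in these fits were uncalled. In siMYBL2 CCND1 ran from -0.064 to 0.15, CCNE1 from -0.14 to 0.099 and CDK4 from -0.20 to 0.030. In siFOXM1 CCNE1 ran from -0.15 to 0.081, CCNE2 from -0.033 to 0.26, CDK2 from -0.080 to 0.043 and CDK6 from -0.21 to 0.023. CCNE1 ran from -0.097 to 0.093 in siBoth, from -0.092 to 0.12 for siMYBL2 against siFOXM1 and from -0.097 to 0.12 for the siBoth effect against the siMYBL2 effect. CDK4 ran from -0.078 to 0.13 for siMYBL2 against siFOXM1. CCNE2 ran from -0.43 to 0.0013 for the siBoth effect against the siMYBL2 effect and from -0.076 to 0.34 for the FDI-6 effect against the siFOXM1 effect. The block also changed the calls of CCNE1 and CDK4 in the last contrast. Per-length ranks moved in 11 of 24 cases with the canonical transcript's length. CCNE2 had the fewest counts of the genes tested, and its SE was the largest in each treatment comparison.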
